A study of Mus musculus with 2 samples.

Results

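The retinal pigment epithelium (RPE) is the pigmented epithelium that lies between the photoreceptors and the choroid, and it moves ions and water out of the subretinal space. Unlike most epithelia, it carries the Na,K-ATPase on its apical membrane, together with the inwardly rectifying potassium channel encoded by Kcnj13, which returns to the subretinal space the potassium that the pump takes up. Chloride leaves across the basolateral membrane through anion channels, among which the calcium-activated channel bestrophin-1, encoded by Best1, and the voltage-gated channel encoded by Clcn2 have been studied in this tissue.

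Transcripts of 7 genes of this machinery, Kcnj13, Best1, Trpm3, Clcn2, Atp1b1, Atp1b2 and Kcnj10, were examined among the 27998 genes listed for single RPE cells of 2 mice, R1 and R2. The genes were found by their symbols, and each symbol stood on 1 row. Both mice were male C57BL/6J animals, with no treatment or transgene named in the labels, of postnatal day 36 by the protocol and 4 to 5 weeks old by the sample labels. Each mouse gave 1 suspension, made from its 2 eyes together, whose cells were sorted for viability with calcein-AM and DAPI and profiled on the 10x Genomics platform by unique molecular identifiers (UMIs), so that molecules rather than amplified copies were counted. R1 held 2844 cells with 26034378 UMIs and R2 held 2994 cells with 29732969 UMIs, and 12 cell barcodes occurred in both.

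After removal of poor cells and likely doublets, 2668 cells of R1 and 2846 of R2 were divided by Ttr, the gene of the thyroxine and retinol carrier transthyretin, which is among the most abundant transcripts of the RPE. Ttr made up at least 5% of the UMIs in 2609 and 2827 cells (Ttr-high cells) and under 3% in 59 and 19 cells (Ttr-low cells), and 0 cells lay between. The highest Ttr-low cells stood at 2.66% in R1 and 0.755% in R2, and the lowest Ttr-high cells at 5.20% and 5.14%. All Ttr-high cells held at least 3 of 8 RPE markers such as Rpe65 and Rlbp1, and so did 57 of 59 and 17 of 19 Ttr-low cells. The summed level of these markers was 471 and 538 UMIs per 10000 in Ttr-high cells against 49.0 and 33.5 in Ttr-low cells. Of the Ttr-low cells, 54 and 16 held at least 3 of 8 genes of a list led by Pax6 and Dkk3, 3 and 2 held fibroblast markers, and 2 and 1 held markers of microglia or macrophages. Among the deeper Ttr-high cells, 120 and 52 also held at least 3 genes of the list. Here and below, cells of the Pax6 and Dkk3 list are the Ttr-low ones. Cells of the Pax6 and Dkk3 list held 0 UMIs of the 8 microglial markers and of 5 of the 6 fibroblast markers. Ttr-low cells were shallower, with a median of 3200 and 3836 UMIs against 8433 and 7685, and their median mitochondrial share was 2.57% and 3.35% against 1.30% and 1.26%. Depth was addressed by thinning and by a fit on shallower Ttr-high cells, given below, and the part of the mitochondrial share in the results was not tested. Levels are given as UMIs per 10000 UMIs of a cell. Since a UMI is read near the 3′ end and marks 1 transcript molecule, UMIs of different genes were compared without division by transcript length.

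Kcnj13, on chromosome 1 at 87386363 to 87394729 of GRCm38 on the minus strand, shared the highest level of the 7 genes with Atp1b1. In Ttr-high cells its mean level was 12.3 ± 8.46 UMIs per 10000 in R1 (SD over 2609 cells) and 11.6 ± 7.75 in R2 (SD over 2827 cells). It stood at rank 62 and 67 among the genes with a UMI in these cells. A UMI of Kcnj13 was found in 96.5% of Ttr-high cells of R1 (95% Clopper-Pearson interval 95.7% to 97.1%) and in 96.4% of those of R2 (95.6% to 97.0%). For comparison, a UMI of Kcnj13 was also found in 2 of 5 and 1 of 3 cells with fibroblast or microglial markers, at median depths of 2851 and 2968 UMIs against 8433 and 7685. The intervals, here and below, cover counting error only. The gene lies within Gigyf2 on the opposite strand and shares exonic bases with it. Use of the strand in counting is not given in the sources used here, and Gigyf2 itself was at 0.324 and 0.261 UMIs per 10000 in Ttr-high cells.

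The 250 bases before the start of Kcnj13 (GRCm38.p6, chr1:87394730-87394979, minus strand, RefSeq) are shown because this gene had the largest fold change of the 5 genes tested below. Of the motifs searched on both strands, namely the E-box CANNTG, its forms CATGTG and CACGTG, and TAATCC, this stretch holds CATGTG, the core of the M-box recognised by the pigment cell factor MITF. In capitals is the match, CACATG as read on this strand, 112 bases before the start. A further E-box, CAGCTG, lies 55 bases before the start and is left unmarked.
Kcnj13: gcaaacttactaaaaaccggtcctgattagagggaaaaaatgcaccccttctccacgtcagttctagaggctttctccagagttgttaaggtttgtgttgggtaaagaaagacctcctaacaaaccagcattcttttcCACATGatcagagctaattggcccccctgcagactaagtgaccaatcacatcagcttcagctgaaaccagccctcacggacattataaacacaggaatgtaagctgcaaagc
CATGTG was present in 14.2% of the 32851 promoters of the RefSeq table, each 250 bases before to 50 after a start, and CANNTG, which includes it, in 72.3%. CATGTG was in none of the other promoters of Best1, Trpm3, Clcn2, Atp1b1 and Kcnj10 in that table. These matches describe the letters only.

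Atp1b1 and Atp1b2 encode beta subunits of the Na,K-ATPase, which bring the catalytic alpha subunit to the membrane. Atp1b2 is also known as an adhesion molecule of glia. The level of Atp1b1 in Ttr-high cells was 12.2 ± 6.42 UMIs per 10000 in R1 and 11.0 ± 6.55 in R2, with a UMI in 97.4% and 96.1% of cells. The mean over the mice was 11.6 ± 0.851 (SD, n = 2) for Atp1b1 and 11.9 ± 0.456 for Kcnj13, a difference smaller than the spread between the mice. Atp1b2 was at 1.92 ± 2.05 and 1.89 ± 2.35 UMIs per 10000, with a UMI in 68.2% and 62.8% of cells. Atp1b1 was thus the more abundant beta subunit gene in both mice. Atp1b1, on chromosome 1 at 164437109 to 164458355 on the minus strand, overlaps Nme7 on the opposite strand, which was at 0.128 and 0.0845 UMIs per 10000 in Ttr-high cells. Atp1b2 lies on chromosome 11 at 69599736 to 69605942 on the minus strand and overlaps no other gene of the annotation.

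Trpm3 encodes a calcium-permeable cation channel of the melastatin family and carries the gene of the microRNA miR-204 in its body. It spans chromosome 19 from 22139046 to 22995410 on the plus strand, and its exons overlap 2 noncoding genes of the opposite strand, Gm27151 and C330002G04Rik. Its level in Ttr-high cells was 5.21 ± 3.71 UMIs per 10000 in R1 and 5.97 ± 4.27 in R2, and 91.4% and 91.2% of cells held a UMI. Clcn2, on chromosome 16 at 20702964 to 20717746 on the minus strand, was at 0.770 ± 1.41 and 0.628 ± 1.32 UMIs per 10000, with a UMI in 39.3% and 32.1% of cells. Its exons overlap those of Fam131a and Polr2h on the opposite strand, which were at 0.0190 and 0.0196 and at 0.317 and 0.341 UMIs per 10000. Below Kcnj13 and Atp1b1, the order of levels was Trpm3 (mean over the mice 5.59 ± 0.538, SD, n = 2), Atp1b2 (1.90 ± 0.0225) and Clcn2 (0.699 ± 0.100) in both mice, and each step was larger than the spread between the mice.

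Few UMIs were assigned to Best1, a gene known to be expressed in the RPE, and whether the annotation used for counting covers the 3′ end of its transcripts was not examined, so that the counts below are not a measure of its expression. In R1, 7 UMIs were found in 7 of 2609 Ttr-high cells, and in R2, 11 UMIs in 8 of 2827 cells, or 0.268% (0.108% to 0.552%) and 0.283% (0.122% to 0.557%) of cells. The gene stood at rank 12728 in R1 and 12142 in R2 by level. None of the Ttr-low cells held a UMI, which, at 3 counts, allows a share of up to 5.08% of the cells in R1 and 15.8% in R2, so that no difference between the groups was detectable at this depth. Best1 lies on chromosome 19 at 9985174 to 10001633 on the minus strand, and its end is 76 bases from that of Fth1, the gene of the ferritin heavy chain, on the opposite strand. Fth1 was at 32.5 and 41.2 UMIs per 10000 in Ttr-high cells. The 250 bases before the Best1 start (chr19:10001634-10001883, minus strand, RefSeq, GRCm38.p6) are shown because few UMIs were assigned to this gene although it is known from the RPE. The capitals mark TAATCC, the core bound by the eye development factor OTX2, 227 bases before the start. An E-box, CAGCTG, lies 236 bases before the start and is left unmarked.
Best1: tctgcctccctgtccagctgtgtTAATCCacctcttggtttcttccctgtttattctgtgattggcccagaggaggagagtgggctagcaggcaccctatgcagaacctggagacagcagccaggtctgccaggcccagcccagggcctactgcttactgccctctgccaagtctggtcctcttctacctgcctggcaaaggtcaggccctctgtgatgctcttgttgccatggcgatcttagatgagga
TAATCC was present in 7.06% of the promoters of the table.

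Kcnj10, on chromosome 1 at 172341210 to 172374085 on the plus strand, encodes the inwardly rectifying potassium channel best known from Muller glia. It had 0 UMIs in all 2844 deposited cells of R1 and all 2994 of R2, which allows a share of up to 0.105% and 0.100% of cells with a UMI. Of the 15 genes of inwardly rectifying potassium channels, Kcnj13 had the highest level in Ttr-high cells, and the next was Kcnj8, a subunit of ATP-sensitive channels, at 0.132 and 0.148 UMIs per 10000. Kcnj14 and Kcnj9 had UMIs in under 1% of Ttr-high cells, namely in 0.268% and 0.354% for Kcnj14 and in 0.230% and 0.106% for Kcnj9.

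**Figure D1:**
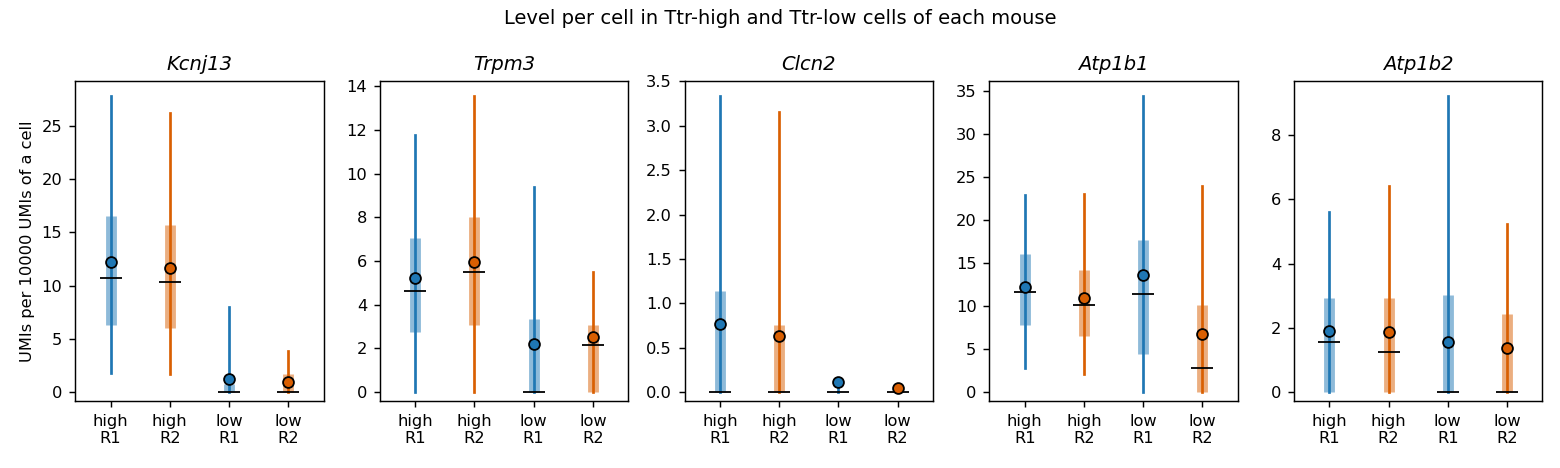
UMIs per 10000 UMIs of a cell for 5 genes, in Ttr-high and Ttr-low cells of R1 (blue) and R2 (orange); circles are means, black dashes medians, thick bars the range between the quartiles of the cells and thin lines the 5th to 95th percentile, and each panel has its own axis from 0. Kcnj13 means lie at 12.3 and 11.6 in Ttr-high cells and at 1.24 and 0.976 in Ttr-low cells, while the Atp1b1 mean of Ttr-low cells lies above that of Ttr-high cells in R1 and below it in R2.

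The levels of these genes followed the depth of a cell less than their detection did. From the shallowest to the deepest quartile of Ttr-high cells, Kcnj13 went from 11.0 to 13.3 UMIs per 10000 in R1 and from 13.0 to 11.5 in R2. Atp1b1 went from 10.7 to 13.0 and from 10.8 to 11.3, and Trpm3 from 5.21 to 5.40 and from 6.17 to 5.93. The direction for Kcnj13 and Trpm3 differed between the mice. The share of cells with a UMI followed depth where the level did not: for Atp1b2 it went from 41.7% to 90.2% in R1 and from 37.3% to 90.5% in R2, at levels of 1.79 and 1.99 and of 1.94 and 1.88 UMIs per 10000. With each cell thinned to 2000 UMIs, 83.6% and 82.9% of Ttr-high cells held Kcnj13, 87.5% and 83.3% Atp1b1, 60.8% and 65.2% Trpm3, 30.8% and 30.1% Atp1b2, and 13.3% and 11.5% Clcn2. All 59 and 19 Ttr-low cells and all Ttr-high cells had the UMIs needed for this.

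**Figure D2:**
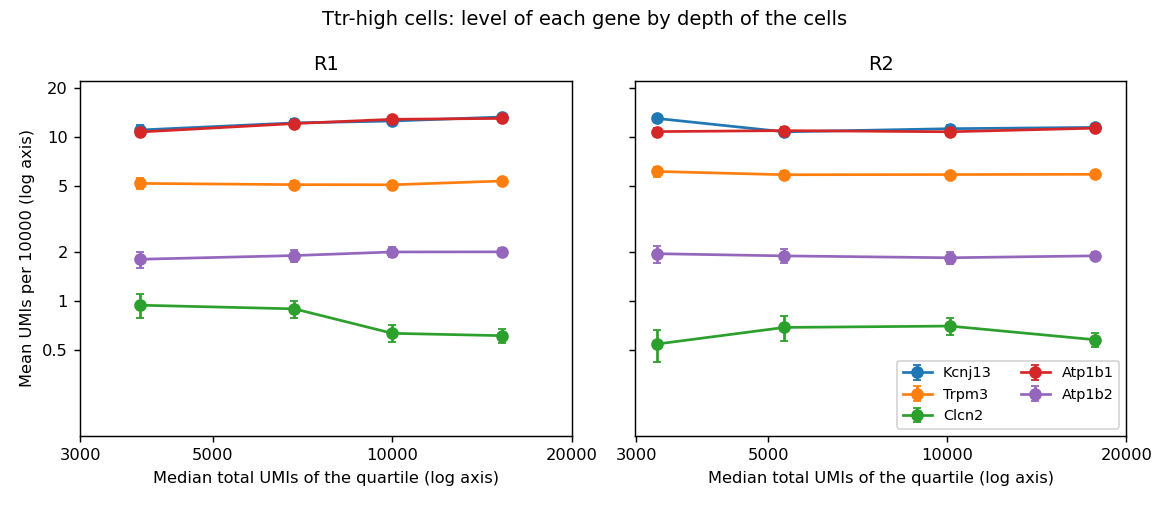
Mean UMIs per 10000 of 5 genes in depth quartiles of the Ttr-high cells, against the median total UMIs of each quartile, for R1 (left) and R2 (right), both axes logarithmic; bars are 95% intervals over the cells of 1 mouse. Kcnj13 rises from 11.0 to 13.3 in R1 but not in R2, and Clcn2 falls from 0.941 to 0.613 in R1 but not in R2, so that neither slope is shared by the mice.

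Ttr itself varied among Ttr-high cells, and it is part of the total to which levels are scaled. In R1, Atp1b1 was at 13.1 UMIs per 10000 in the 138 cells with 5% to under 8% Ttr and at 10.0 in the 344 cells with 14% or more. In R2 the values were 11.3 in 31 cells and 10.4 in 773 cells. With Ttr left out of the total, Atp1b1 went from 14.1 to 11.8 in R1 but from 12.1 to 12.3 in R2, so that a lower Atp1b1 level in cells with more Ttr was then seen in R1 alone. Kcnj13 was at 13.3 and 12.2 in the same cells of R1 and at 11.6 and 10.8 in those of R2. With Ttr left out of the total, Kcnj13 was at 14.4 and 14.4 in R1 and at 12.5 and 12.7 in R2, so that no lower level was then seen. Just inside the limit, the 11 and 4 cells with 5% to 6% Ttr held Kcnj13 at 12.1 and 10.9 and Trpm3 at 4.98 and 7.71. Just outside it, the 8 cells of R1 with 1% to 3% Ttr held Kcnj13 at 1.13 and Trpm3 at 1.96, and R2 had 0 cells there.

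Among Ttr-high cells, Kcnj13, Trpm3 and the pump genes had a lower coefficient of variation than the median gene, which was also less abundant. After thinning, the coefficient of variation beyond counting error was 57.8% and 53.6% for Kcnj13, 41.3% and 44.3% for Atp1b1, 47.2% and 50.2% for Trpm3 and 58.7% and 73.7% for Atp1b2. The median over the genes found in at least 20% of cells was 110% in R1 (3423 genes) and 131% in R2 (2961 genes), at a median of 0.148 and 0.168 UMIs per thinned cell, against 2.44 and 2.32 for Kcnj13 and 1.04 and 1.19 for Trpm3. Clcn2, at 0.155 and 0.133 UMIs per thinned cell the gene of the 5 nearest to that level, had a coefficient of 108% and 111%. The part of the level in these differences was not tested.

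Most pairs of the genes hardly covaried over Ttr-high cells. Pearson's r of the log level over the 10 pairs of Kcnj13, Trpm3, Clcn2, Atp1b1 and Atp1b2 stood at a median of 0.0416 for R1 and -5e-05 for R2. The pair Kcnj13 and Atp1b1, the potassium channel and the pump subunit of the apical membrane, had an r of 0.111 over 2609 cells of R1 and of -0.00202 over 2827 cells of R2. For comparison, r over all pairs of the 2941 genes found in at least 20% of Ttr-high cells of both mice had a median of 0.0187 and 0.0221. These cells share a library, and the counts per cell were few, so the values describe the data without a test.

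The genes most like Kcnj13 over Ttr-high cells, by the lower r of the mice, were Rgr, which encodes an opsin of the RPE, with an r of 0.334 and 0.211, Clu (0.295 and 0.190) and Apoe (0.266 and 0.167). With each cell thinned to 2000 UMIs the r of Rgr was 0.224 and 0.139. For Atp1b1 they were Sostdc1 (0.195 and 0.122), Enpp2 (0.178 and 0.111) and Apoe (0.226 and 0.106). Those nearest to Clcn2 were Malat1, Col8a2 and mt-Nd5, with r between 0.0776 and 0.132. The r of genes near Trpm3 (Bdh2, Col8a1) and Atp1b2 (Car14, Smpd1, Eno1) stayed under 0.1 in both mice. After thinning, the r with Atp1b1 was 0.0859 and 0.0407 for Sostdc1, 0.116 and 0.0622 for Enpp2 and 0.137 and 0.0486 for Apoe. With Atp1b2 it was then 0.0379 and 0.0314 for Car14, -0.00832 and 0.0115 for Smpd1 and -0.00301 and 0.0144 for Eno1. The part of depth and level in the r values was not tested. Kcnj13 also had an r of -0.26 and -0.18 with the mitochondrial share of a cell.

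Ttr-low cells held less Kcnj13, Trpm3 and Clcn2 than Ttr-high cells in both mice, and the pump genes differed less. Kcnj13 was at 1.24 ± 2.54 UMIs per 10000 in the 59 Ttr-low cells of R1 and at 0.976 ± 1.71 in the 19 of R2, against 12.3 and 11.6 in Ttr-high cells. Its 24 UMIs in R1 and 16 in R2 correspond to 0.0983 times (0.0630 to 0.146, exact conditional interval) and 0.152 times (0.0869 to 0.247) the UMIs per total UMI of Ttr-high cells. Both Ttr-low values lay far below both Ttr-high values. In R2, 8 of the 16 UMIs came from 1 cell, which had 13692 UMIs in total, and without it the summed level of R2 was 1.03 instead of 1.76 UMIs per 10000. Before thinning, 15 of 59 Ttr-low cells of R1 held a UMI of Kcnj13, or 25.4% (15.0% to 38.4%). In R2 it was 6 of 19, or 31.6% (12.6% to 56.6%). After a single random thinning to 2000 UMIs, Kcnj13 was found in 11 of 59 Ttr-low cells of R1, or 18.6% (9.69% to 30.9%). In R2 it was then found in 0 of 19, which allows up to 15.8% at that depth and does not show that these cells lack Kcnj13.

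The Kcnj13 left in Ttr-low cells can be set beside that of cells of other types in the same suspension. The 5 and 3 cells with fibroblast or microglial markers, which should lack the gene, held it at 2.36 and 1.10 UMIs per 10000 (4 and 1 UMIs), and the 54 and 16 cells of the Pax6 and Dkk3 list at 1.14 and 0.954. A UMI was present in 2 of 5 and 1 of 3 of the former, at median depths of 2851 and 2968 UMIs, and in 13 of 54 and 5 of 16 of the latter, at 3202.5 and 4040.5. The share in the latter, 24.1% and 31.2%, lay below that of the former, 40.0% (5.27% to 85.3%) and 33.3% (0.840% to 90.6%), and the intervals, from 5 and 3 cells, are too wide to set them apart. RPE markers were also found in the cells of other types, with a summed level of 43.5 and 19.4 UMIs per 10000 against 49.5 and 36.1 in cells of the Pax6 and Dkk3 list. Per 1000 UMIs of Ttr, Ttr-low cells held 16.9 UMIs of Kcnj13 in R1 and 44.0 in R2, against 11.2 and 9.04 in Ttr-high cells. The ratio of these was 1.51 (0.969 to 2.25) in R1 and 4.86 (2.78 to 7.90) in R2, and it was 0.906 (0.680 to 1.18) and 0.424 (0.156 to 0.924) for Rpe65, the isomerase of the visual cycle. Ttr is the gene by which the cells were split, so a ratio per Ttr UMI is raised by the split itself. For Atp1b1 it was 16.3 and 14.9, and no conclusion is drawn from such ratios.

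Trpm3 was at 2.20 ± 3.67 and 2.54 ± 4.93 UMIs per 10000 in Ttr-low cells, against 5.21 and 5.97. The 42 and 25 UMIs correspond to 0.415 times (0.299 to 0.561) and 0.461 times (0.298 to 0.681) the level per UMI of Ttr-high cells. The intervals of the mice overlap. In R2, 9 of the 25 UMIs came from 1 cell. Trpm3 was found in 23 of 54 and 9 of 16 cells of the Pax6 and Dkk3 list, against 0 of 5 and 1 of 3 cells of other types. The 0 of 5 allows a share of up to 60.0%, and the interval for 1 of 3 is 0.840% to 90.6%. These cells are thus too few to set the groups apart. The UMIs of Trpm3 per 1000 UMIs of Ttr were 29.6 and 68.7 in Ttr-low cells against 4.63 and 4.66 in Ttr-high cells. The split by Ttr itself raises the values of Ttr-low cells here. Clcn2 had 3 UMIs in Ttr-low cells of R1 and 1 in R2, a ratio per UMI of 0.224 (0.0461 to 0.655) and 0.176 (0.00446 to 0.984).

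Atp1b1 differed between the mice. In Ttr-low cells of R1 it was at 13.6 ± 13.4 UMIs per 10000, against 12.2 in Ttr-high cells, with a ratio per UMI of 1.06 (0.933 to 1.20). In R2 it was at 6.75 ± 8.72, against 11.0, with a ratio of 0.466 (0.342 to 0.620). The 257 and 47 UMIs lay almost wholly in cells of the Pax6 and Dkk3 list, which held 254 and 47 of them. Over all Ttr-low cells, the interval includes an equal level in R1 but not in R2. For cells of the Pax6 and Dkk3 list alone, the ratio was 1.14 (1.01 to 1.29) in R1 and 0.516 (0.379 to 0.686) in R2. Whether the mice differ was not tested. Atp1b2 was at 1.56 ± 3.19 and 1.37 ± 2.01 UMIs per 10000, against 1.92 and 1.89, with ratios of 0.825 (0.560 to 1.17) and 0.644 (0.321 to 1.15) that both include 1.

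**Figure D3:**
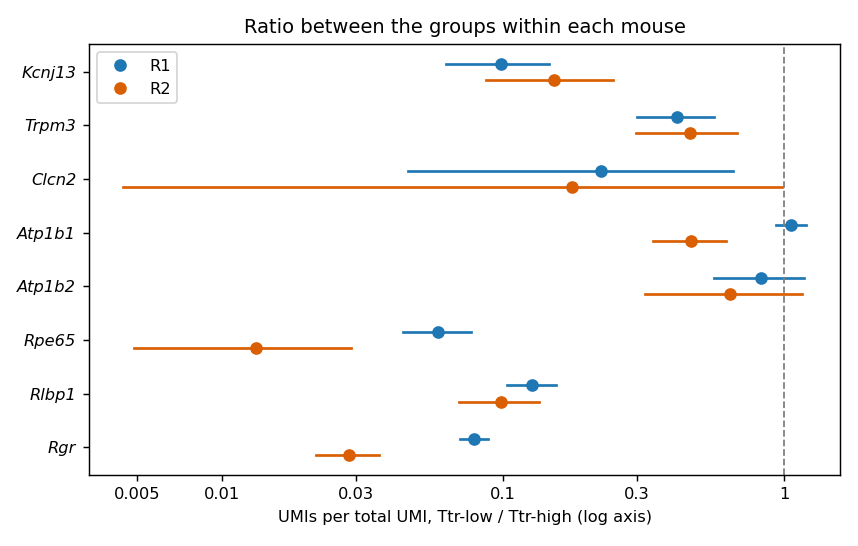
Ratio of UMIs per total UMI between Ttr-low and Ttr-high cells, on a logarithmic axis, within R1 (blue) and R2 (orange), with 95% intervals for counting error; the dashed line marks equal levels, and the visual cycle genes Rpe65, Rlbp1 and Rgr are drawn for comparison. Kcnj13 lies at 0.0983 and 0.152, Trpm3 at 0.415 and 0.461, and Atp1b1 at 1.06 in R1 but 0.466 in R2.

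Counts summed per mouse and group gave 4 libraries, which were tested over all genes with edgeR's quasi-likelihood test and Benjamini-Hochberg adjustment. With 2 mice and 4 sums, the p-values rest largely on a dispersion, or spread beyond counting error, estimated over all genes (common value 0.0707). They do not measure the spread of 1 gene between the mice. Of 11484 genes tested, 1199 were called, or 10.4%, with 713 lower (6.21%) and 486 higher (4.23%) in Ttr-low cells, and the median log2 fold change of all genes was -0.34. Best1 and Kcnj10 did not pass the filter on low counts, and the other 5 of the 7 genes were called lower. For these 5, the sums of the Ttr-high cells alone met the filter, though each gene also had UMIs in both Ttr-low sums. Kcnj13 fell by 3.79 on the log2 scale (SE 0.417, adjusted p = 1.50e-17), Clcn2 fell by 2.96 (SE 0.755, adjusted p = 0.00152) and Trpm3 fell by 1.93 (SE 0.373, adjusted p = 6.95e-06). The value of Clcn2 rests on 4 UMIs in Ttr-low cells. With 10% of the UMIs taken off as ambient RNA, the log2 fold change was -6.46 for Kcnj13, -3.97 for Clcn2 and -2.26 for Trpm3, and with Ttr-high cells no deeper than the upper quartile of Ttr-low cells it was -3.55, -3.15 and -1.67. Lower levels of these 3 genes were called under all 14 alternative settings, where those without other cell types and with the Pax6 and Dkk3 list only held the same cells. Atp1b1 fell by 1.19 (SE 0.365, adjusted p = 0.0136) and Atp1b2 fell by 1.15 (SE 0.410, adjusted p = 0.0498). Without the TMM scaling, which set the median of all genes at 0.38 instead of -0.34, the log2 fold change was -0.43 for Atp1b1 (adjusted p = 0.279) and -0.41 for Atp1b2 (adjusted p = 0.601), and neither was called. Relative to the median of all genes, Atp1b1 was lower by 0.85 with TMM and by 0.81 without, and Kcnj13 by 3.45 and 3.44. Atp1b2 also lost its call in 6 of the other settings, which include those with the same cells. Fitted for each mouse alone, with TMM and without a test, Atp1b1 was at -0.52 in R1 and -1.98 in R2 on the log2 scale, where the medians of all genes were -0.32 and -0.89.

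**Figure D4:**
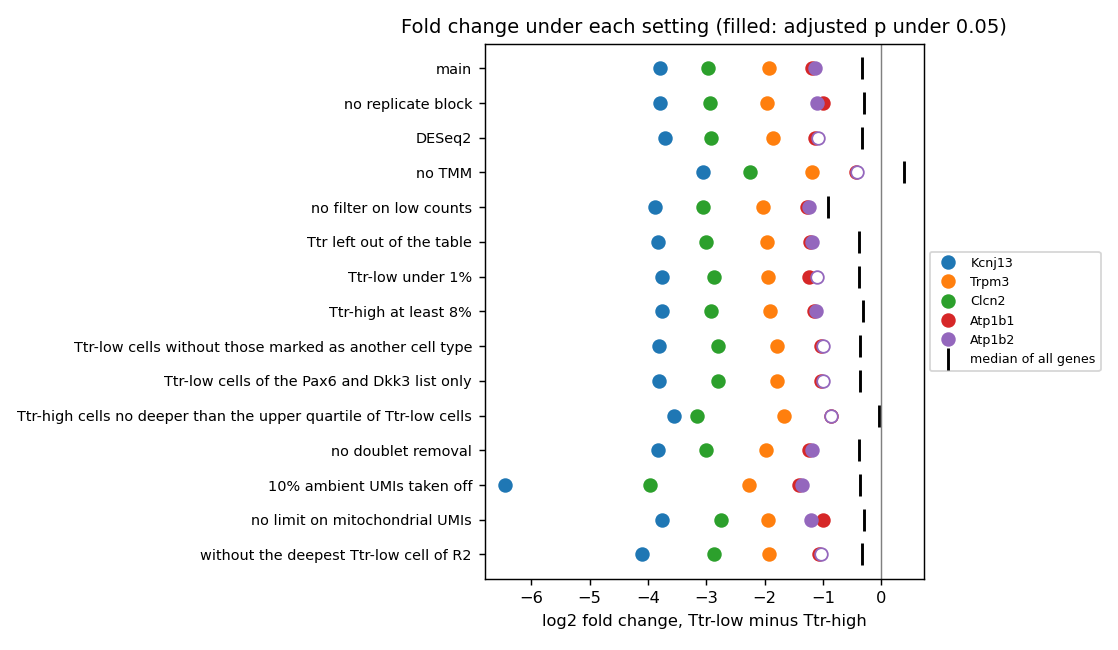
Log2 fold change of 5 genes, Ttr-low minus Ttr-high cells, under the main setting and 14 alternatives. The alternatives without other cell types and with the Pax6 and Dkk3 list only hold the same cells. Filled circles passed an adjusted p of 0.05, open circles did not, and vertical ticks mark the median of all genes tested. Kcnj13, Clcn2 and Trpm3 are filled throughout, Atp1b1 is open without TMM only, and Atp1b2, which is drawn over Atp1b1 where they coincide, is open in 7 settings.

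Several other genes of the Na,K-ATPase list changed in the opposite direction. Of 10 list genes tested, 2 were lower, namely Atp1b1 and Atp1b2, and 5 were higher, against 6.21% and 4.23% of all genes, and the median log2 fold change was 2.78 against -0.34. The 5 were also called higher without TMM, but with cells of the Pax6 and Dkk3 list only, Fxyd5 and Fxyd6 did not pass the filter and 3 of the 5 were left. Fxyd1, Fxyd5 and Fxyd6, scarce in Ttr-high cells, passed the filter on low counts only through the Ttr-low cells. The filter thus had a part in their direction and in the median of the list. The same holds for Best2, Kcnq5, Cacnb4 and Slc26a4 below. Car2 and Kcnk1 below also needed the Ttr-low cells to pass, since of their Ttr-high sums only that of R1 reached the filter. Trpv4, Atp2b2 and Car12 below, with 0 UMIs in Ttr-low cells of R2, passed it through the Ttr-high cells. Atp1b3, a further beta subunit, rose, with 119 UMIs in Ttr-low and 722 in Ttr-high cells of R1 and 80 and 907 in R2. The ratio per UMI was 20.4 (16.6 to 24.8) in R1 and 26.1 (20.5 to 32.8) in R2, so that Atp1b3 reached 6.19 and 8.78 UMIs per 10000 in the summed counts of Ttr-low cells. Fxyd1, a regulator of the pump, had 34 and 29 UMIs against 11 and 15, in 20 and 10 of the Ttr-low cells. Fxyd6 had 8 and 7 UMIs against 0 and 1, and in R2 6 of the 7 lay in cells of other types. Fxyd5, which was also called higher and is named here after its values were seen, had 2 and 5 UMIs in Ttr-low cells, all in cells of other types.

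Of 22 anion channel genes tested, 2 were lower, Clcn2 and Clic6, and 2 higher, against 6.21% and 4.23% of all genes, shares near which these counts lie. The median log2 fold change was -0.42. Clic6, a chloride intracellular channel gene, fell with Clcn2, by 2.64 on the log2 scale (SE 0.398, adjusted p = 1.96e-09), with ratios per UMI of 0.210 (0.133 to 0.315) and 0.349 (0.203 to 0.559). Clic1 rose, with a log2 fold change of 1.89 (SE 0.433, adjusted p = 0.000272). Best2, the paralog of Best1 known from the ciliary epithelium, had 15 and 24 UMIs in 6 and 6 Ttr-low cells against 2 and 1 UMIs in Ttr-high cells. All of those 15 and 24 UMIs lay in cells of the Pax6 and Dkk3 list. The summed level of 7 ciliary epithelium markers, Best2 among them, was 9.12 and 8.32 UMIs per 10000 in Ttr-low cells against 0.556 and 0.488 in Ttr-high cells, with Aqp1 at 0 in R1 and Opcml at 0 in R2. Only 1 of 59 and 3 of 19 Ttr-low cells held at least 3 of these markers. Slc4a4, a further marker of the 7 named here after its values were seen, had 122 and 34 UMIs in Ttr-low cells. The part of these markers in the results was not tested. The mitochondrial porin genes Vdac1 (log2 fold change 0.18, adjusted p = 0.850) and Vdac2 (-0.41, adjusted p = 0.645) were not called.

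Of 8 TRP channel genes tested, 2 were lower, Trpm3 and Trpv4, and 1 was higher, against 6.21% and 4.23% of all genes, at a median log2 fold change of -0.02. Trpm1, the relative of Trpm3 in melanocytes and retinal bipolar cells, rose by 3.91 on the log2 scale (SE 0.371, adjusted p = 1.34e-23), with 347 and 92 UMIs in Ttr-low cells and ratios per UMI of 24.8 (22.1 to 27.9) and 25.2 (20.2 to 31.2). Trpm1 and Trpm3 thus moved in opposite directions, and the order of their summed levels was reversed, with Trpm1 at 18.0 and 10.1 and Trpm3 at 2.18 and 2.74 UMIs per 10000 in Ttr-low cells. Trpv4, a channel opened by osmotic swelling, had 1418 and 1181 UMIs in Ttr-high cells and 1 and 0 in Ttr-low cells (adjusted p = 0.000378), a ratio per UMI of 0.0872 (0.00221 to 0.487) in R1 and a level at least 1.33-fold lower in R2. Trpm7 was not called (log2 fold change -1.96, adjusted p = 0.155).

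Of the 11 other potassium channel genes tested, 1 was lower and 2 were higher, against 6.21% and 4.23% of all genes, at a median log2 fold change of -1.47. Kcna2, a voltage-gated channel gene, was lower, with 815 and 971 UMIs in Ttr-high and 1 and 1 in Ttr-low cells (adjusted p = 0.0347), ratios per UMI of 0.152 (0.00384 to 0.848) and 0.304 (0.00769 to 1.70). Kcna2 was not called without TMM (adjusted p = 0.181), by DESeq2 (adjusted p = 0.189) or with cells of the Pax6 and Dkk3 list only (adjusted p = 0.0715). Kcnk1, a background potassium channel gene, was higher, with 10 and 15 UMIs in Ttr-low cells and 38 and 20 in Ttr-high cells, and Kcnq5 had 2 and 3 against 8 and 5 but was not called with cells of the Pax6 and Dkk3 list only (adjusted p = 0.0580). Kcnh2 (log2 fold change 0.02) was not called. Kcnj8 was the only gene of inwardly rectifying channels tested beside Kcnj13 and was not called (log2 fold change -2.72, SE 1.52, adjusted p = 0.336). Kcnj8 is also on the list of pericyte markers.

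Of 17 calcium channel and pump genes tested, 2 were lower and 1 higher, against 6.21% and 4.23% of all genes, shares near which these counts lie, at a median log2 fold change of -0.10. Slc24a1, a sodium, calcium and potassium exchanger gene, had 8678 and 9953 UMIs in Ttr-high cells and 3 and 1 in Ttr-low cells, ratios per UMI of 0.0427 (0.00881 to 0.125) and 0.0297 (0.000751 to 0.165) (adjusted p = 3.59e-18). Atp2b2, a plasma membrane calcium pump gene, had 1707 and 1668 UMIs against 4 and 0 (adjusted p = 0.00102). Cacnb4 had 5 and 4 UMIs in 3 and 1 Ttr-low cells, against 16 and 18 UMIs in Ttr-high cells (adjusted p = 0.0127), so that its value in R2 rests on 1 cell. Itpr1 was not called (log2 fold change -1.04, adjusted p = 0.251).

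Of 22 genes of bicarbonate, proton and chloride cotransport tested, 6 were lower and 3 higher, against 6.21% and 4.23% of all genes, at a median log2 fold change of -1.23. Car14, a membrane-bound carbonic anhydrase gene, went from 30.0 and 28.9 UMIs per 10000 in Ttr-high to 6.81 and 5.60 in Ttr-low cells (log2 change -2.98, SE 0.405, adjusted p = 1.33e-11), and Car12, a further one, had 8296 and 8245 UMIs in Ttr-high and 10 and 0 in Ttr-low cells, a ratio of 0.149 (0.0714 to 0.274) in R1 and a level at least 9.31-fold lower in R2, against 3 counts in the group. Slc4a5, a sodium bicarbonate cotransporter gene, was lower by 1.09 (SE 0.371, adjusted p = 0.0339) but was not called without TMM (adjusted p = 0.575), by DESeq2 (adjusted p = 0.117) or with cells of the Pax6 and Dkk3 list only (adjusted p = 0.0796). Car2, the cytosolic carbonic anhydrase gene, had 44 and 30 UMIs in Ttr-low cells against 23 and 18 in Ttr-high cells, and Slc26a4, the gene of the anion exchanger pendrin, had 7 and 33 against 1 and 6. The carbonic anhydrase genes therefore moved in both directions, though the filter on low counts had a part in the direction of Car2, as given above. The water channel genes were scarce: Aqp11 was at 0.312 and 0.110 UMIs per 10000 in Ttr-low and 0.153 and 0.141 in Ttr-high cells and was not called, and Aqp1 had 13 and 4 UMIs and Aqp8 7 and 17 UMIs in Ttr-high cells.

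**Figure D5:**
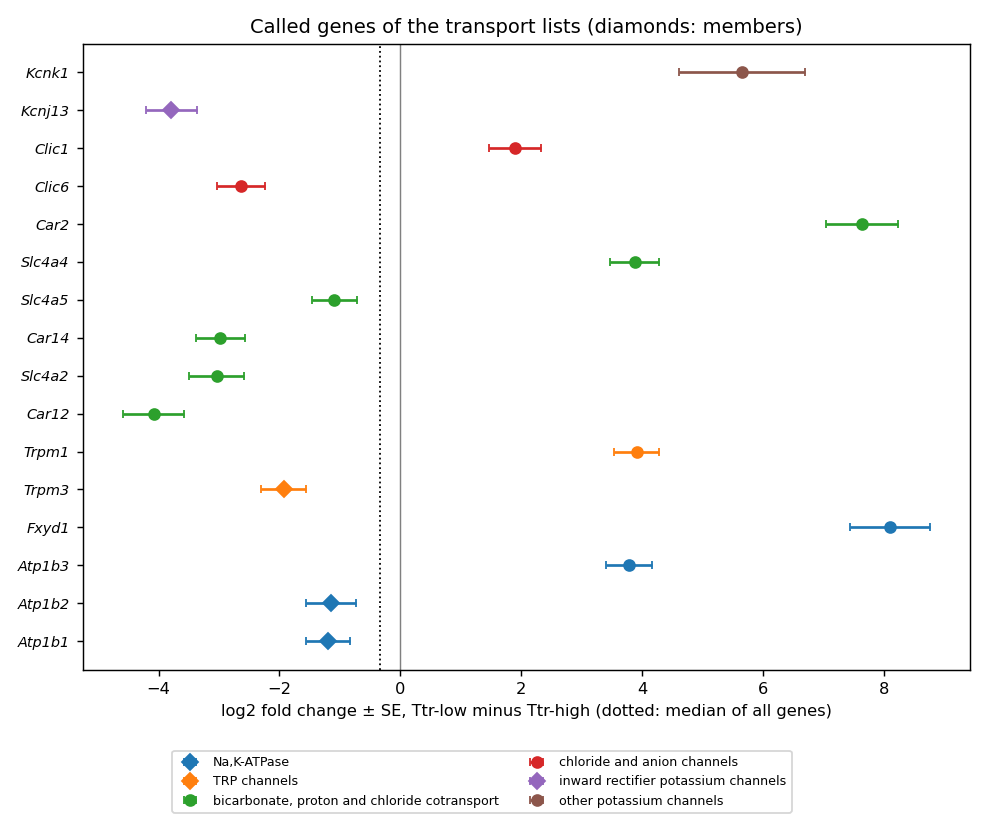
Log2 fold change ± SE, Ttr-low minus Ttr-high cells, of 16 called genes of the transport lists, each with at least 10 UMIs in the sums of both groups, coloured by list; diamonds are Kcnj13, Trpm3, Atp1b1 and Atp1b2, and the dotted line is the median of all genes at -0.34. Atp1b1 and Atp1b2 lie left of the line and Atp1b3 and Fxyd1 right of it, and Trpm3 and Trpm1 lie on opposite sides.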

How the data were processed

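RPE cells of 2 mice were measured by droplet RNA sequencing. The authors aligned reads to GRCm38 with Cell Ranger 1.2.0, after bcl2fastq 2.20.0.422 by the submitters' processing notes, and deposited UMI counts per gene and cell, without normalization; the authors' later step of removing ambient RNA was not repeated here. The sample labels and the paper name different versions of the chemistry. Cells with fewer than 500 genes or over 5% mitochondrial UMIs were left out, and so were the 4% most like artificial doublets, scored by the share of artificial profiles (25% of the total) in the nearest 1%, on 10 principal components. Cells were then divided at 3% and 5% Ttr. Levels were scaled to 10000 UMIs, and intervals of values above 0 were exact at 95%, whereas a count of 0 was taken to allow 3 counts.

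Counts were summed per mouse and group and tested with edgeR 4.0.16 in R 4.3.3 (filterByExpr, TMM, false discovery rate 0.05), with the mouse as a block, since both groups came from the same animal. DESeq2 1.42.0 was an alternative. Python 3.11.15, numpy 2.4.6, scipy 1.17.1 and scikit-learn 1.9.0 served the rest, and the tests were tested on simulated data. Positions came from the GENCODE annotation of GRCm38 and promoters from RefSeq (GRCm38.p6), where 6 of the 7 genes were matched. The 7 genes, the transport lists and the marker lists were chosen with earlier results of these data known. From each transport list up to 3 genes with the highest level in Ttr-high cells and up to 3 called genes with the largest fold change were named, and for each of the 7 genes the 3 genes with the highest r; some genes that this rule picks are not reported here. Nothing says whether the mice were processed on separate days. The authors state that storage before loading differed in length between replicates, so that RNA quality may vary, and name a lower quality of R2 as possible. The part of this in differences between the mice was not tested.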

Additional observations from a re-analysis of the deposited data

How the results depend on the processing

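Of 204 alternative values for 22 results, 179 stayed within the limit set for their kind. The settings without other cell types and with the Pax6 and Dkk3 list only held the same cells but were counted separately. For fold changes this was the same sign and side of the threshold, and for counts of genes a fixed ratio. For levels, shares, r and fold changes with 1 mouse left out, it was the spread between the mice. Levels, shares and r with 1 mouse left out meet that limit by construction and so say nothing on stability. Fold changes with 1 mouse left out were held against the spread of those values themselves, so they say little on it. No log2 fold change changed sign, while the ratio of Atp1b1 per UMI in R1, which has no TMM scaling, was 1.06. The median r of the gene pairs did change sign, being 0.0416 in R1 and -5e-05 in R2. Without the mouse as a block ("no replicate block"), 2183 genes were called instead of 1199, with the same 5 of the 7 genes among them; the pairing comes from the shared animal. DESeq2 called 925 genes, of which 54.2% were higher in Ttr-low cells, against 40.5% by edgeR with TMM and 73.9% of 1479 without it. Without TMM 3 of the 7 genes were called, and the log2 fold change was -0.43 for Atp1b1 and -0.41 for Atp1b2. Atp1b2 was not called with DESeq2 (-1.09), with Ttr-low cells under 1% Ttr (-1.11), without the cells marked as another type, which left the Pax6 and Dkk3 list only (-1.01 for both settings), with Ttr-high cells no deeper than the upper quartile of Ttr-low cells (-0.87), and without the deepest Ttr-low cell of R2 (-1.04), an alternative chosen after seeing the data. Kcnj13 was at -4.10 without that cell and at -6.46 with 10% ambient UMIs taken off. Of the 30 transport genes called, 16 lower and 14 higher, 11 and 14 were also called in that direction without TMM, 12 and 14 by DESeq2, and 13 and 11 without other cell types. The cause was not tested.

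With 1 mouse left out, the log2 fold change ranged from -3.95 to -3.60 for Kcnj13, -2.00 to -1.87 for Trpm3, -3.38 to -2.76 for Clcn2, -1.98 to -0.52 for Atp1b1 and -1.52 to -0.88 for Atp1b2, values without a test. With Ttr out of the denominator, the level in Ttr-high cells was 13.6 for Kcnj13, 6.38 for Trpm3, 13.2 for Atp1b1 and 2.16 for Atp1b2 UMIs per 10000. Thinned to 2000 UMIs, the share of cells over both mice was 83.2% for Kcnj13, 63.0% for Trpm3, 12.4% for Clcn2, 85.4% for Atp1b1, 30.4% for Atp1b2 and 0.0575% for Best1. Without doublet removal it was 96.6% for Kcnj13, 91.6% for Trpm3 and 0.264% for Best1, and without the mitochondrial limit 96.1% for Kcnj13 and 91.1% for Trpm3. With 59 and 19 Ttr-low cells, counts under about 10 UMIs carry wide intervals, and 1 cell can decide a value in R2.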
